A study of Mus musculus with 3 samples.

Results

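The proteasome genes of mouse T cells were described from 3 RNA-seq libraries of a single group. The genes were chosen by name: every symbol that starts with Psm, one of the letters a to g and a digit, with pseudogenes left out. Of 54 matching symbols, 4 were pseudogenes (Psmb5-ps, Psmb6-ps, Psmb6-ps2 and Psmb7-ps2, none above 1 count in any library), which left 50 genes of the 50600 in the tables. The choice used no measured value. One of the 50, Psmc3ip, matches the pattern but encodes a cofactor of meiotic recombination and not a proteasome protein, so 49 genes were proteasome subunits or cofactors.

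The libraries were made from C57BL/6NJ T cells, which the labels call primary cells, and are numbered as biological replicates 2, 3 and 4. The labels give no genotype, treatment or time, do not give the sex, and list the age as unknown. Their linked protocol is one for differentiating CD4+ T cells, and the alignments named in the file headers carry the name Th0, the word activated and 0 h. The assay is labelled total RNA-seq, but the linked library protocol is named for poly(A)+ RNA. All 3 libraries carry 1 donor identifier, and the labels do not say whether separate animals were used; p-values here measure only library-to-library spread. Replicates 2, 3 and 4 held 47432940, 59698913 and 28340521 counts. The T cell markers Cd3e, Cd3d, Cd4, Trac and Lck were all present, with a summed level of 7336 to 7514 TPM, where TPM is the count divided by gene length and scaled to the same total in every library. Replicate 2 stood apart in sex-linked genes, with Xist at 151 TPM and Ddx3y at 0.248 TPM, against 0.221 and 0.399 TPM for Xist and 80.0 and 72.3 TPM for Ddx3y in replicates 3 and 4. These values differ as between female and male animals, so replicate 2 did not come from the same animal as the other libraries, while separate animals for replicates 3 and 4 are not shown and the spread between them may be technical. Of the 50 genes, only Psmd10 lies on the X chromosome.

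The proteasome is the protease that degrades ubiquitin-tagged proteins in the cytosol and nucleus. Its barrel-shaped core particle is built from outer rings of α subunits, which gate the channel, and inner rings of β subunits, of which β1, β2 and β5 cut peptides. The regulatory particle caps the core: its lid holds the deubiquitinase that removes ubiquitin chains, and its base holds the ATPase ring that unfolds substrates. In lymphocytes and in cells exposed to interferon, alternative catalytic subunits replace the constitutive ones in newly assembled cores, giving the immunoproteasome, which is known for producing peptides for MHC class I.

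The comparison of catalytic subunits turned on 3 pairs of genes, Psmb8 against Psmb5 at β5, Psmb9 against Psmb6 at β1 and Psmb10 against Psmb7 at β2. The promoters below are the 250 bases before the start site in RefSeq's table (GRCm38.p6). They are given for the 5 catalytic genes that the table holds; Psmb7 is not among them. Each is written 5′ to 3′ on the gene's own strand, and capitals mark a match to TGACNNNGC, the core of the antioxidant response element, or to CCAAT, read as ATTGG where the match is on the opposite strand.
Psmb8: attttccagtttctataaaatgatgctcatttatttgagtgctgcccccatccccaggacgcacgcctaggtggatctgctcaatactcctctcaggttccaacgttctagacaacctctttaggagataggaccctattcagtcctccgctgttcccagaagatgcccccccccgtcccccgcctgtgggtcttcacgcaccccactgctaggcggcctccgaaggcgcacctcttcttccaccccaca
Psmb9: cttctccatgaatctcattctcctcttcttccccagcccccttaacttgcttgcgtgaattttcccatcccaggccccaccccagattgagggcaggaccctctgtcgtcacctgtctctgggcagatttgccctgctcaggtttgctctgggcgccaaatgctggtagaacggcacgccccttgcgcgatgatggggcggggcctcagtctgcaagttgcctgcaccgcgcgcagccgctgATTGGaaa
Psmb10: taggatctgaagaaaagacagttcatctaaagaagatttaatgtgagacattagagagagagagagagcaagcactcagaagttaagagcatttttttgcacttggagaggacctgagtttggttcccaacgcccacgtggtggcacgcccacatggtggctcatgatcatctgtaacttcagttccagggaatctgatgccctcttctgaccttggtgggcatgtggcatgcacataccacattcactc
Psmb5: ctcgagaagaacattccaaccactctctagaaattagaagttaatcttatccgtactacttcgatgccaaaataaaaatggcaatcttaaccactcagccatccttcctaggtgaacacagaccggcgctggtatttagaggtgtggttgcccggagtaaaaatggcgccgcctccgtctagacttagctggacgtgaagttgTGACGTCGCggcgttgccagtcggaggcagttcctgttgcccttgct
Psmb6: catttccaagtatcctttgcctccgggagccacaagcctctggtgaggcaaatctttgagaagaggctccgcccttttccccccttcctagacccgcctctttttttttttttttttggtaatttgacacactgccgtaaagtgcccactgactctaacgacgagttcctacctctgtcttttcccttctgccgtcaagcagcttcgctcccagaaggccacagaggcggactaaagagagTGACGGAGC
The windows lie at chr17:34197945-34198194 on the plus strand for Psmb8, chr17:34187331-34187580 on the minus strand for Psmb9, chr8:105938393-105938642 on the minus strand for Psmb10, chr14:54617996-54618245 on the minus strand for Psmb5 and chr11:70525107-70525356 on the plus strand for Psmb6. Psmb5 and Psmb6 held TGACNNNGC, at positions -47 (TGACGTCGC) and -9 (TGACGGAGC) from the start site. Psmb9 held CCAAT at -8 on the opposite strand, and Psmb8 and Psmb10 held neither. The core of the interferon-stimulated response element (GAAA, any 2 bases, GAAA) was in none of the 5 windows. The windows of Psmb8 and Psmb9 lie wholly, and that of Psmb10 in part, inside the gene's deposited span, which begins further upstream. A match is a description of letters, not a site.

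Nearly every proteasome gene was transcribed, and most stood high among expressed genes. Of the 50 genes, 48 were detected, meaning 1 TPM or more in all 3 libraries, against 23.4% of all genes and 46.1% of protein-coding genes. The exceptions were Psma8 and Psmb11, with 0 counts in every library. The median detected protein-coding gene was at 33.4 TPM, and 42 of the 50 genes were above it. The median percentile of the 48 detected genes among detected protein-coding genes was 82.2. Together they held 0.629% ± 0.00688 of all TPM (SD, n = 3) and 0.399% ± 0.00375 of all counts. Levels ran from 5.34 ± 0.731 TPM for Psmc3ip and 8.25 ± 0.357 TPM for the assembly chaperone Psmd9 to 416 ± 11.6 TPM for the immuno subunit Psmb8. The activator Psme1 was the highest with principal transcript lengths, at 531 TPM, against 480 TPM for Psmb8. The plot of all genes by role shows these levels in each library.

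**Figure D1:**
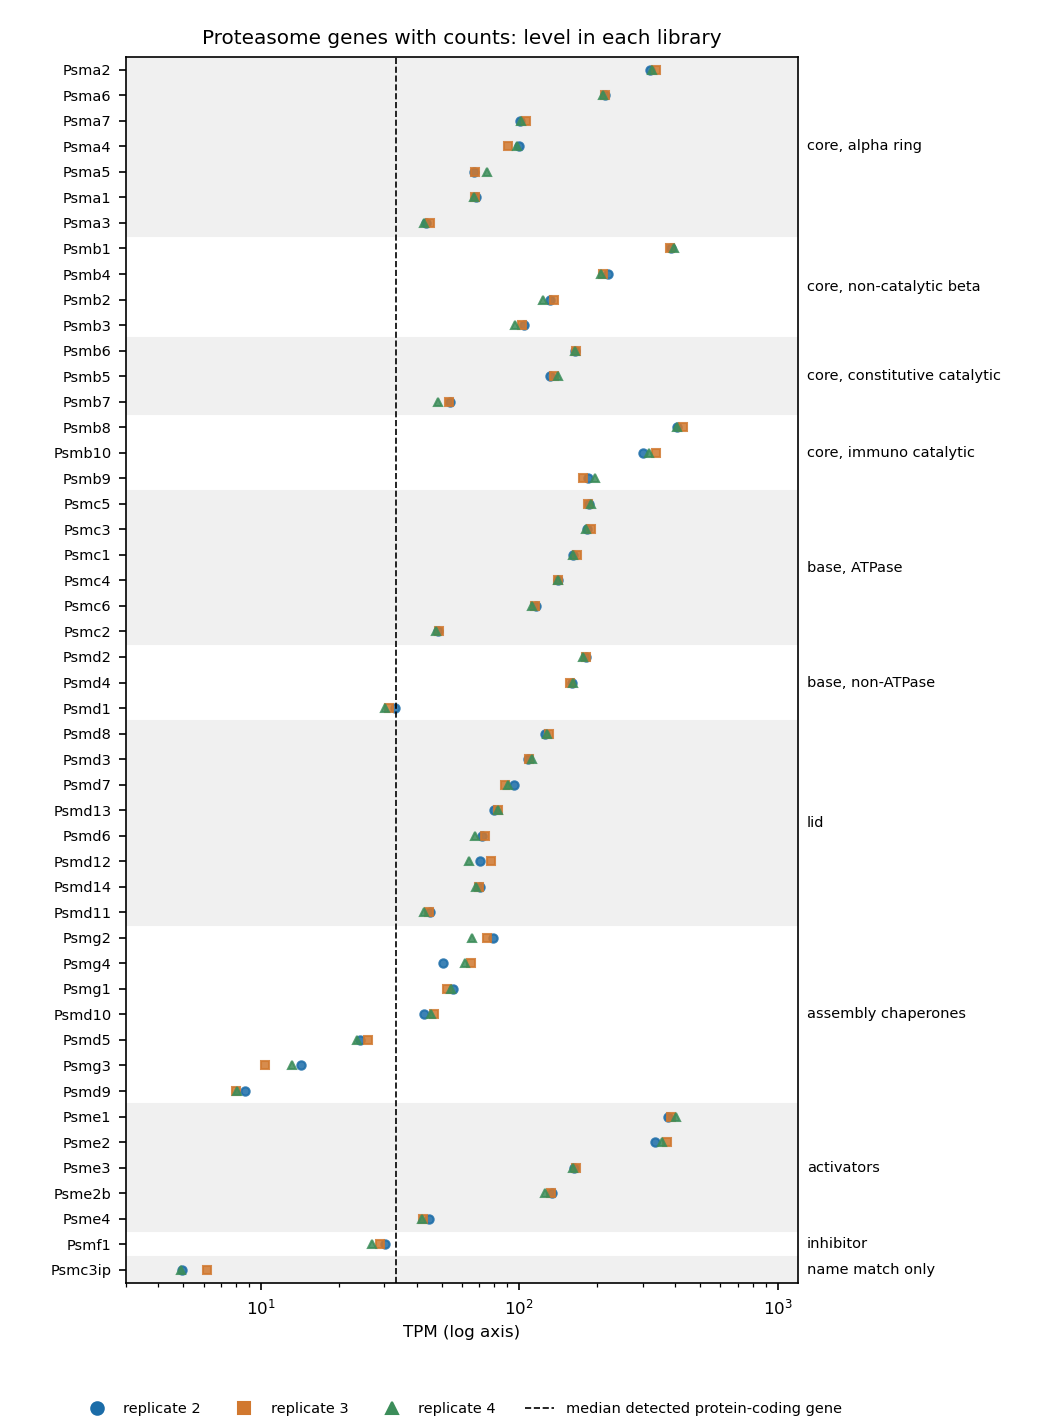
Level of the 48 proteasome-named genes with counts in each of the 3 libraries, in TPM on a log axis, grouped by role, with 1 marker shape per replicate. The dashed line is the median detected protein-coding gene, 33.4 TPM. The markers of a gene lie close together compared with the distances between genes, and Psmb8 is the highest with the merged exon lengths plotted.

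The immuno catalytic subunits were the higher partner at every catalytic position and in every library. Psmb8, the immuno β5 subunit (ENSMUSG00000024338.14, mm10 chromosome 17, 34197721 to 34201454, plus strand), was at 409, 429 and 409 TPM in replicates 2, 3 and 4. Its constitutive partner Psmb5 (ENSMUSG00000022193.6, chromosome 14, 54614120 to 54617995, minus strand), the chymotrypsin-like subunit that proteasome inhibitor drugs bind, was at 131, 136 and 141 TPM. The libraries of the pair did not overlap, and the difference was 1.61 ± 0.06 on the log2(TPM + 0.1) scale (SD, n = 3), a ratio of 3.06.

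At β1, where the constitutive subunit cuts after acidic residues, the partners were close. Psmb9, the immuno β1 subunit (ENSMUSG00000096727.2, chromosome 17, 34181988 to 34187764, minus strand), was at 185, 177 and 196 TPM. Psmb6, the constitutive one (ENSMUSG00000018286.6, chromosome 11, 70525367 to 70527858, plus strand), was at 164, 166 and 164 TPM. All 3 libraries of Psmb9 lay above all 3 of Psmb6, with a log2 difference of 0.17 ± 0.08 and a ratio of 1.13.

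At β2, the trypsin-like position, the gap was the widest. Psmb10, the immuno β2 subunit (ENSMUSG00000031897.9, chromosome 8, 105935735 to 105938444, minus strand), was at 302, 338 and 318 TPM. Psmb7, the constitutive one (ENSMUSG00000026750.6, chromosome 2, 38588036 to 38644087, minus strand), was at 53.9, 53.6 and 48.4 TPM, the lowest of the 6 catalytic genes. The log2 difference was 2.62 ± 0.12 and the ratio 6.15. Each of these 3 differences exceeded its spread between libraries and had the same sign in 3 of 3 libraries. Each gave p = 0.25 in a sign-flip permutation test (exact, two-sided), the smallest p possible with 3 libraries, and so could not pass 0.05. The adjusted p was 0.25 over the 12 contrasts computed (Benjamini-Hochberg).

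The size of these ratios depended on the length used for each gene, while their direction did not. The deposited length sums all annotated exons of a gene, and that sum was 2.95 times the length of the principal transcript for Psmb7 and 2.71 times for Psmb9, while for Psmb5 the principal transcript was no shorter than the sum. With principal transcript lengths the ratios were 5.14 at β5, 1.30 at β1 and 2.71 at β2, so the widest gap was then at β5. Psmb5 also shares sequence with 3 other annotated genes: 57.1% of the 50-base windows of its transcript occur in them, while Psmb7, Psmb8, Psmb9 and Psmb10 share none and Psmb6 2.67%. The counting options in the file headers do not ask for multiply aligned reads, so part of Psmb5 may not have been counted. Its level here is uncertain for that reason, and the most similar gene, Gm3375, held 28 counts over the 3 libraries.

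**Figure D2:**
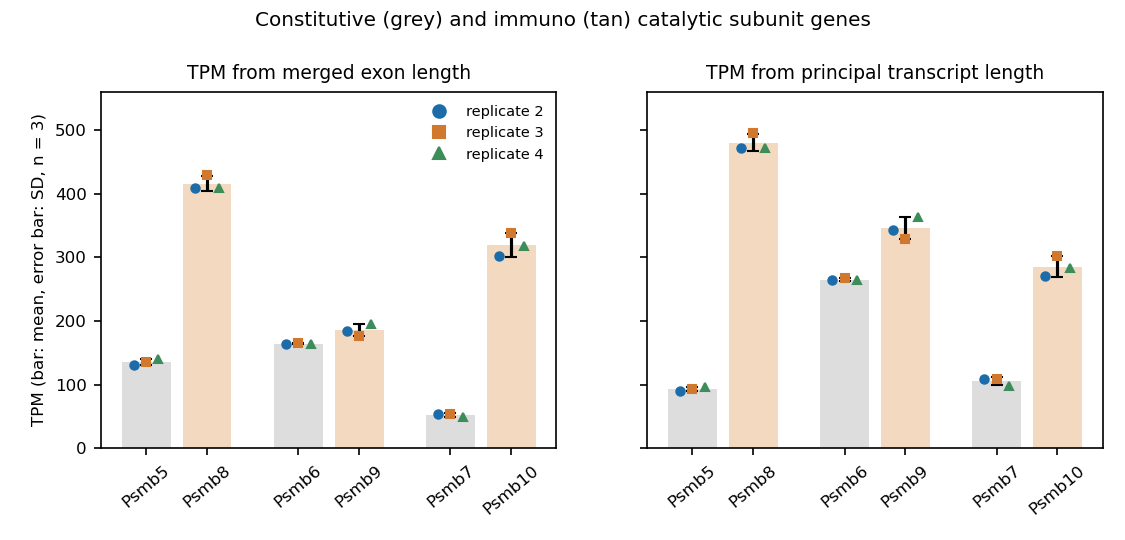
Levels of the 6 catalytic subunit genes in TPM, as bars (mean), error bars (SD, n = 3) and 1 marker per library, with counts divided by the merged exon length (left) or the principal transcript length (right). The immuno bar is the taller of each pair in both panels, by 3.06, 1.13 and 6.15 times on the left and 5.14, 1.30 and 2.71 times on the right.

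Expressed as the share of the length-corrected counts of each pair, the immuno subunit held 75.4% ± 0.817 at β5 (75.7%, 75.96% and 74.4% in replicates 2, 3 and 4), 53.0% ± 1.41 at β1 (53.0%, 51.6% and 54.5%) and 86.0% ± 1.00 at β2 (84.8%, 86.3% and 86.8%). Pooled counts gave 75.5% at β5, with a 95% exact binomial interval from 75.0% to 76.1%, 52.7% at β1 (52.2% to 53.3%) and 85.9% at β2 (85.6% to 86.3%). These intervals cover counting error only. Principal transcript lengths gave 83.7%, 56.6% and 73.0% at β5, β1 and β2. Taking as length only the windows that no other gene shares, as if no read from shared stretches had been counted, gave 68.9%, 55.2% and 72.9%. Under each of these lengths the share was above 50% at all 3 positions in all 3 libraries and lowest at β1, and which of β2 and β5 was highest changed. Transcript shares of this kind say nothing of how many assembled particles hold each subunit.

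**Figure D3:**
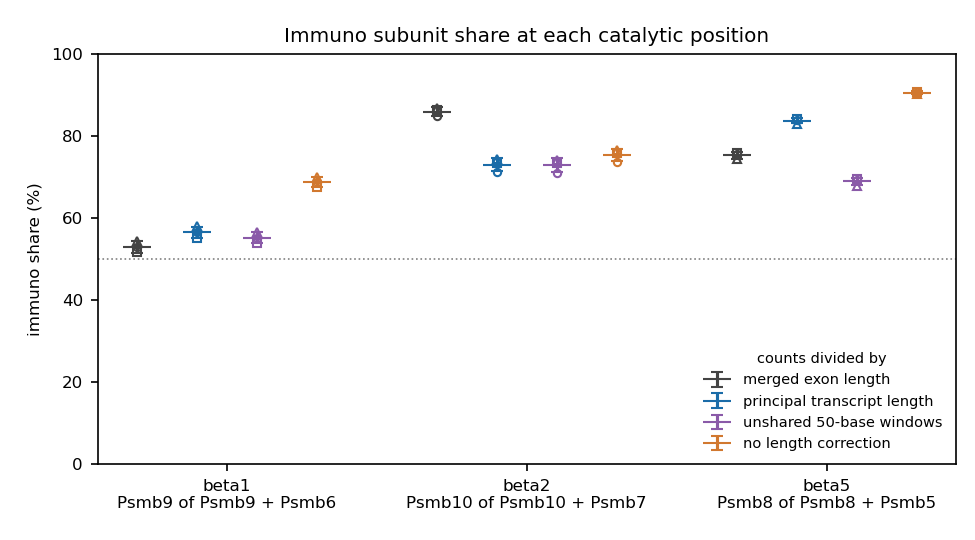
Share of the immuno subunit in the summed length-corrected counts of each catalytic pair, in percent, for 3 length choices and for raw counts without length correction. Horizontal lines are means, error bars are SD (n = 3), open symbols are the libraries and the dotted line marks equal levels of both partners. All means lie above the dotted line, and β1 is the closest to it, at 53.0% with merged exon length.

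Among the immuno subunits, Psmb8 exceeded Psmb10 by 0.38 ± 0.05 and Psmb9 by 1.16 ± 0.11 on the log2 scale, and by 0.75 and 0.48 with principal transcript lengths. Psmb9 minus Psmb10 was -0.78 ± 0.13, but 0.28 with principal transcript lengths, so the order of these 2 genes turned with the length used. Among the constitutive subunits, Psmb6 was the highest: Psmb5 minus Psmb6 was -0.27 ± 0.05, or -1.50 with principal transcript lengths, and Psmb6 exceeded Psmb7 by 1.66 ± 0.08. Psmb5 exceeded Psmb7 by 1.39 ± 0.13 with merged exon lengths, and the difference was -0.17 with principal transcript lengths. The contrasts of Psmb5 are uncertain under either length, because 57.1% of its transcript windows are shared with other genes. The median of the 3 immuno genes exceeded that of the 3 constitutive genes by 1.20, 1.32 and 1.17 on the log2 scale in the 3 libraries (1.23 ± 0.08, a fold of 2.35), and by 1.71 with principal transcript lengths.

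Other cells in the preparation can carry immuno subunits, and in bulk RNA fewer cells of a type and less RNA per cell cannot be told apart. Of the B cell markers reported here, 4 of 4 (Cd79a, Cd79b, Ms4a1 and Pax5) were detected, none was at 0, and their sum was 33.6, 38.6 and 26.7 TPM in replicates 2, 3 and 4. Of the dendritic cell and MHC class II markers, 4 of 6 were detected, led by Cd74 at 120, 138 and 92.8 TPM, with a sum of 194, 237 and 156 TPM. In this list Itgax and Flt3 were below 1 TPM and none was at 0. Of the macrophage markers, 2 of 4 were detected (Lyz2 and Cd68), with sums between 15.1 and 15.9 TPM. Of the CD8 lineage genes, Cd8b1 was at 36.5, 33.9 and 30.5 TPM and Cd8a at 0.334, 0.578 and 0.690 TPM, below the detection threshold. The B cell and MHC class II sums were highest in replicate 3, where Psmb8 and Psmb10 were highest and Psmb9 lowest. Their part in the subunit levels was not tested.

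The tissue-restricted subunits had no counts in any library. Psmb11, the catalytic subunit of the thymoproteasome of cortical thymic epithelium, had 0 counts in all 3 libraries, and 3 counts over the 3 libraries would correspond to 0.0187 TPM. It lies 7314 bases from Psmb5 on chromosome 14, on the opposite strand. Psma8, the α subunit of the germ cell proteasome, also had 0 counts, with a floor of 0.0469 TPM. Of the thymic epithelial markers, Foxn1, Krt8 and Krt5 were at 0 counts in every library and 2 of 5 were detected (Prss16 and Epcam, both under 4 TPM). None of the 5 meiotic germ cell markers was detected.

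The other core subunits spanned a wide range. The α ring genes Psma1 to Psma7 had a median of 96.2 ± 4.92 TPM. The lowest was Psma3 at 43.4, 45.1 and 42.8 TPM and the highest Psma2 at 319, 339 and 325 TPM, a 7.49-fold distance between 2 subunits that are each present once per ring. By principal transcript length Psma7 was the highest, at 237 TPM against 225 TPM for Psma2, and the distance from Psma3 was 5.76-fold. The non-catalytic β genes Psmb1 to Psmb4 had a median of 171 ± 5.48 TPM, from Psmb3 at 105, 103 and 96.5 TPM to Psmb1 at 386, 382 and 399 TPM. Psmb3 was at 209 TPM and Psmb2 was the lowest, at 126 TPM, when principal transcript lengths were used. Psma3, Psma4, Psma5 and Psmb3 share between 22.0% and 55.8% of their transcript windows with other annotated genes, so their levels may be understated by an unknown amount.

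The ATPase genes of the base, Psmc1 to Psmc6, whose products form the unfolding ring, had a median of 152 ± 1.67 TPM. Psmc2 was the lowest, at 48.6, 48.9 and 47.5 TPM, and Psmc5 the highest, at 186, 184 and 189 TPM. Psmc6 was the lowest, at 78.7 TPM, and Psmc3 the highest, at 202 TPM, with principal transcript lengths, so both ends of this order turned with the length. Psmc4 was at 141 TPM in each library. Of the other base genes, the ubiquitin receptor Psmd4 was at 159 ± 2.19 TPM. The 2 large scaffold subunits differed: Psmd2 was at 181, 181 and 176 TPM and Psmd1 at 32.9, 31.2 and 30.3 TPM, below the median detected protein-coding gene. The gap between Psmd2 and Psmd1 was 5.70-fold, and with principal transcript lengths their means were 168 and 50.5 TPM. The median detected protein-coding gene was then at 33.5 TPM, so Psmd1 lay above it with that length. Psmd2 shares 26.4% of its transcript windows with other annotated genes.

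The 8 lid genes were lower than the base and closer together, with a median of 77.2 ± 2.68 TPM. Psmd8 was the highest at 125, 130 and 128 TPM and Psmd11 the lowest at 45.0, 44.7 and 42.8 TPM. Using principal transcript lengths, Psmd3 and Psmd8 were both at 174 TPM, and Psmd12 and Psmd11 were lowest, at 67.7 and 68.0 TPM. The deubiquitinase gene Psmd14 was at 70.3, 69.7 and 67.8 TPM. The SD of log2 levels over genes was 0.469 in the lid, 0.737 in the ATPase ring and 1.01 in the α ring. With principal transcript lengths the SD was 0.542, 0.486 and 1.00, so the ATPase genes were then as close together as the lid genes.

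The medians of core and regulatory particle genes differed little with merged exon lengths. The difference of means over genes, in place of medians, was larger, at 0.56 on the log2 scale. The median of the 17 core genes exceeded that of the 17 regulatory genes by 0.28, 0.32 and 0.33 on the log2 scale in replicates 2, 3 and 4, a mean of 0.31 ± 0.02 and a fold of 1.24. Without the 3 immuno subunits, which stand in for constitutive ones, the median of the remaining 14 core genes exceeded the regulatory median by 0.11, 0.13 and 0.00468 (0.08 ± 0.07), a fold of 1.06 and about as large as its spread. With principal transcript lengths the difference was 1.12 ± 0.08 with 17 core genes and 0.68 ± 0.05 with 14. The core median was the higher one in each library under all 4 of these length and gene choices, by an amount that changed with the length. The sums of TPM were 3028 ± 31.2 over the 17 core genes, 2107 ± 9.04 over the 14 and 1875 ± 18.0 over the regulatory genes.

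**Figure D4:**
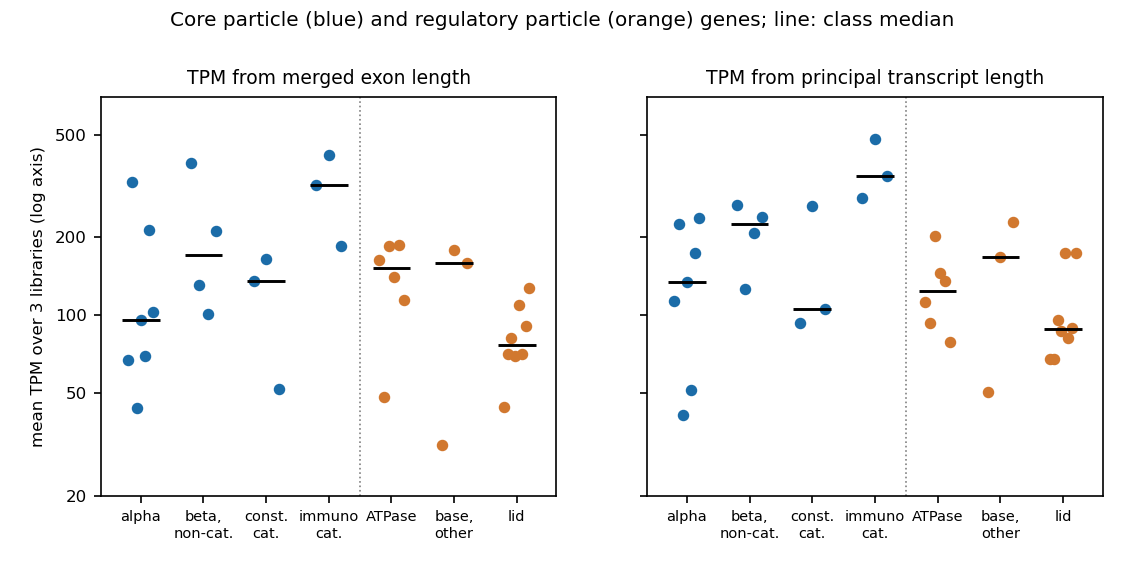
Mean TPM over the 3 libraries, on a log axis, of the 17 core particle genes (blue) and 17 regulatory particle genes (orange) by class, with counts divided by merged exon length (left) or principal transcript length (right). Black lines are class medians of these means. The immuno catalytic genes form the class with the highest median in both panels and the lid the one with the lowest, 76.3 TPM on the left.

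With merged exon lengths, shorter genes tended to have higher levels within both particles. Across genes, Pearson's correlation of log2 TPM with log2 exon length was -0.42 over the 48 genes with counts, -0.47 over the 17 core genes, -0.74 over the 14 core genes without the immuno subunits and -0.66 over the 17 regulatory genes, against -0.09 over the 10030 detected protein-coding genes. With principal transcript lengths these were -0.33, -0.31, -0.69, -0.36 and -0.12, and Spearman's rho over the 17 core genes was 0.07, so the tendency in the whole core was weak or absent with that length. These are descriptions across genes, which share the libraries and, through TPM, the length itself.

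Assembly chaperones had the lowest median of the classes with several expressed genes. Their median was 45.0 ± 2.04 TPM over 7 genes. The base chaperones Psmd5 and Psmd9 were at 24.5 ± 1.28 and 8.25 ± 0.357 TPM. Psmd9 was the lowest of the class in each library, at 8.65, 7.99 and 8.10 TPM. The third base chaperone, Psmd10 (gankyrin), was at 42.8, 46.7 and 45.5 TPM. Of the core particle chaperones, Psmg2 was the highest at 79.2, 75.0 and 65.5 TPM. Psmg1, its partner, was at 54.2 ± 1.46 TPM. The partners Psmg3 and Psmg4 were at 14.3, 10.4 and 13.2 TPM and at 50.9, 64.9 and 61.4 TPM. With principal transcript lengths Psmg3 and Psmg4 were closer, at 28.4 and 40.6 TPM. Psmd9 was then at 15.8 TPM, still the lowest of the class, and Psmd10 at 31.8 TPM. Psmg3 shares 22.7% of its transcript windows with another annotated gene. The low library of Psmg3 was replicate 3 and that of Psmg4 replicate 2.

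Of the activators of the core, Psme1 and Psme2 were the highest. Psme1 and Psme2 encode the α and β chains of the interferon-inducible activator ring that opens the core without ubiquitin or ATP. Psme1 (ENSMUSG00000022216.16, mm10 chromosome 14, 55578123 to 55581529, plus strand) was at 376, 387 and 403 TPM, and Psme2 (ENSMUSG00000079197.10, chromosome 14, 55587441 to 55591113, minus strand) at 336, 373 and 357 TPM. All 3 libraries of Psme1 lay above those of Psme2, by a log2 difference of 0.13 ± 0.07. Psme3, the nuclear activator, was at 163, 165 and 162 TPM, 1.25 ± 0.06 below Psme1. Psme4, a large single-chain activator of the nucleus, was at 44.6, 42.4 and 41.8 TPM, and Psme3 exceeded it by 1.93 ± 0.05. Psme1 was at 531 TPM with principal transcript lengths, above all 3 immuno subunits, and its ratio to Psme3 was 4.27 in place of 2.38. The differences between Psme1 and Psme2, Psme1 and Psme3, and Psme3 and Psme4 kept their sign in 3 of 3 libraries. Each gave the same exact sign-flip p of 0.25 (adjusted 0.25). Psme1 was not tested against the immuno subunits.

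Psme2 has a near-identical copy on chromosome 11, Psme2b (48945354 to 48946190, minus strand), whose exon fills its whole span of 837 bases. Psme2b was at 133, 133 and 126 TPM. It shares 69.3% of its transcript windows with other genes and Psme2 59.3%, for each mainly with the other. Reads from the shared stretches cannot be assigned to one of them, so both levels are uncertain and the difference between Psme1 and Psme2 with them. Psmf1, an inhibitor of the core, was low, at 30.2, 29.0 and 26.9 TPM. Psmc3ip, no proteasome gene, was at 4.93, 6.18 and 4.90 TPM.

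No proteasome gene passed the test of variation among libraries beyond that of genes of similar abundance. The test, over 13498 genes, asked how well an edgeR model with only an intercept fitted each gene. Of the 48 proteasome-named genes tested, 0 passed an adjusted p of 0.05, where 0.533% of all tested genes did, and 0 had an unadjusted p under 0.05, where 4.1% of all tested genes did. DESeq2 size factors, a common dispersion (which called 2.31% of all genes), other count minimums and leaving out each library also gave 0. At a background of 0.533%, 0 of 48 is near what all genes show, and a missed threshold does not show that levels were equal. The smallest unadjusted p was 0.122, for Psmg3, with an edgeR adjusted p of 1.00. The common biological coefficient of variation of all genes was 9.24%.

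The range over libraries was small. The median gap between a gene's highest and lowest library was 0.09 on the log2 scale for the 48 genes, 0.19 for all genes tested and 0.14 for the 9947 genes with at least the mean count of the least counted proteasome-named gene. That gene is Psmc3ip, at a mean of 125 counts, and most of the 48 had far more. The 9947 genes were therefore not matched to the 48 in abundance. The widest ranges were in Psmg3, at 0.43, and in Psmg4 and Psmc3ip, which are among the least counted. Replicate 3, the deepest library, was the highest for 22 of the 48, replicate 4 for 17 and replicate 2 for 9, against 30.6%, 35.5% and 33.9% of all genes tested.

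**Figure D5:**
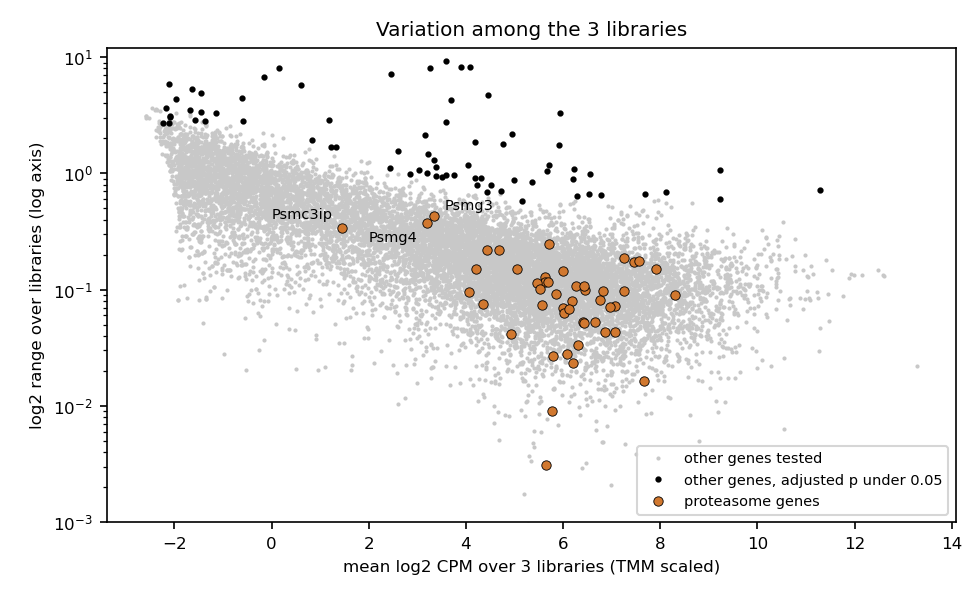
Log2 range over the 3 libraries (log axis) against mean log2 CPM for the 13498 genes tested, with the 48 proteasome-named genes in orange and the genes with an edgeR adjusted p under 0.05 in black. No orange point is among the black ones, and the highest orange point is Psmg3, at 0.43.

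Of the 17 other proteasome genes reported on, 16 were found and all 16 were detected, with a median of 54.5 TPM. The highest of them were the ubiquitin shuttle factors Ubqln1 at 155 ± 8.51, Ubqln4 at 90.8 ± 0.451 and Ubqln2 at 72.1 ± 1.75 TPM and the segregase ATPase Vcp at 114 ± 4.32 TPM. The base ubiquitin receptor Adrm1, the lid peptide Sem1 and the core maturation factor Pomp were at 65.6 ± 1.78, 41.9 ± 1.38 and 34.2 ± 0.754 TPM. This order turned with the length. With principal transcript lengths Adrm1 was the highest, at 131 TPM, followed by Vcp at 114 and Ubqln1 at 110 TPM. Pomp and Ubqln4 were then both at 77.7 TPM, Sem1 at 69.3 and Ubqln2 at 49.6 TPM. All 8 listed regulators of proteasome genes were detected. Nfe2l2 and Nfe2l1, which encode factors that bind antioxidant response elements, were at 86.2 ± 3.39 and 84.5 ± 0.399 TPM, followed by their small Maf partner Mafk at 60.5 ± 2.98 TPM and Ddi2, the protease that activates the Nfe2l1 product, at 44.3 ± 1.42 TPM. Ngly1, another listed regulator, was above Ddi2 with principal transcript lengths, at 50.5 against 30.4 TPM. Of 12 interferon and antigen processing genes, 12 were detected, with a median of 209 TPM. They were led by the MHC class I light chain B2m at 5796 ± 335 TPM, the peptide-loading factor Tapbp at 513 ± 11.6 TPM, and the peptide transporter genes Tap1 and Tap2 at 376 ± 5.17 and 376 ± 15.1 TPM. With principal transcript lengths B2m was still the highest, at 3982 TPM. Tap1 was then at 479, Tapbp at 401, Irf1 at 398 and Tap2 at 283 TPM. None of these 36 genes passed the edgeR test of variation, adjusted or at an unadjusted p under 0.05.

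Psmb8 and Psmb9 had antigen presentation genes as neighbours. On chromosome 17, Psmb9, Tap1, Psmb8 and Tap2 follow one another within the MHC, at 186, 376, 416 and 376 TPM, and only 9956 bases separate Psmb9 from Psmb8. With principal transcript lengths these 4 genes were at 345, 479, 480 and 283 TPM, so Psmb9 was then above Tap2. Psmb9 and Tap1 are transcribed in opposite directions from RefSeq start sites 226 bases apart, so 275 bases of their promoter windows are the same sequence. The Psmb9 promoter printed above therefore also holds the start of Tap1. On chromosome 14, 5911 bases separate Psme1 from Psme2, with Emc9, a gene of membrane protein insertion, between them at 28.7 ± 3.48 TPM. The next genes after Psme2 were Rnf31 at 119 ± 6.14 TPM and Irf9, part of the interferon-activated factor complex, at 134 ± 8.22 TPM. In all, the 50 genes lie on 16 chromosomes, with 10 on chromosome 11.

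Over the promoter windows, taken from 250 bases before to 50 after the start, 42 of the 50 genes had an entry, and motifs were searched on both strands. The core of the interferon-stimulated response element was in 5 of 42 (11.9%), against 3.99% of the 27025 genes in the table. These were Psmb3, Psmd4, Psmd9, Psme1 and Psmg4, and in Psme1 the letters were GAAAGCGAAA, on the opposite strand just after the start. TGACNNNGC was in 6 of 42 (14.3%), against 13.99% of genes: Psmb5, Psmb6, Psmc6, Psmd9, Psmd12 and Psme4. CCAAT was in 15 of 42 (35.7%), against 41.1% of genes, with 7 of 14 core windows and 4 of 14 regulatory windows. No match says only that these letters are not in this window. The median GC content was 58.0% in the proteasome windows and 52.4% in all 32851 windows.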

How the data were processed

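RNA-seq of 3 mouse T cell libraries was used as deposited gene tables. The values are raw counts of read pairs per gene, which the authors made with featureCounts 1.4.6-p4, per the file headers. The annotation was GENCODE vM13 and the build mm10; exons were summed per gene, both ends had to align, and counting was reverse stranded. The aligner's version is not given in the sources used here. TPM was computed here from counts and the deposited merged exon length, so a gene with long alternative exons gets a lower TPM. Symbols came from a name table by Ensembl identifier (50376 of 50600 genes matched). Biotypes and principal transcripts came from GENCODE M21, and a principal transcript longer than the deposited exons (6 of the 50 genes) was given the deposited length. Promoters came from RefSeq (GRCm38.p6).

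Differences among libraries were tested by goodness of fit in edgeR 4.0.16 (R 4.3.3, intercept-only negative binomial model, TMM scaling, trended dispersion, mean count of 10 or more, Benjamini-Hochberg adjustment at 0.05) and tested on simulated data. Gene contrasts used log2(TPM + 0.1) and an exact sign-flip permutation test, and intervals are exact binomial at 95%. Class and particle medians are descriptions with no test. Shared sequence was counted as exact matches of 50-base windows of the principal transcript in transcripts of other annotated genes. All genes of the name rule are covered, with values in every library for the catalytic subunits, activators and inhibitor and the highest and lowest gene of each class, and means for the 4 highest of each other proteasome, regulator and interferon list. Values in every library for Psmd14, Psmd10, Psmg3, Psmg4 and Psme2b, and the levels of Adrm1, Sem1, Pomp, Emc9, Rnf31, Xist and Ddx3y, were added after the values were seen. A listed B cell marker and a further listed proteasome gene are not reported here. The genes and lists were chosen with earlier results of these data known. Alternatives were DESeq2 1.42.0 size factors, other pseudocounts, detection thresholds, scalings, count minimums, dispersion, gene choices and each replicate left out.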

Additional observations from a re-analysis of the deposited data

How the results depend on the processing

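No paired analysis was possible because all 3 libraries belong to 1 group. Principal transcript lengths and unshared windows were chosen after seeing the data. With principal transcript lengths Psmb9 minus Psmb10 reversed to 0.276 and Psmb5 minus Psmb7 to -0.172. The immuno minus constitutive difference became 1.71, the core minus regulatory difference 1.12, the share of TPM 0.696%, and the immuno share 83.7% at β5, 56.6% at β1 and 73.0% at β2. Unshared windows gave shares of 68.9%, 55.2% and 72.9%, and raw counts 90.6%, 68.8% and 75.4%. Psmb5 minus Psmb7 was not computed with unshared windows, although 57.1% of the Psmb5 windows are shared. A mean over genes in place of the median gave 1.47 for immuno minus constitutive and 0.56 for core minus regulatory. The core minus regulatory difference was 0.0841 without the 3 immuno subunits and 0.25 with Psma8 and Psmb11 added, while TPM over genes of 200 bases or more gave a share of 0.651%. Changes with length follow from dividing the same counts by another length; which length fits these cells' transcripts was not tested.

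Each library was left out for the results that follow, the 12 gene contrasts, the share of TPM and the level of each gene. With 3 libraries, a mean over libraries cannot move past its SD when any library is left out. Staying within the SD therefore says nothing about the differences, shares and levels, and only their ranges are given. Class medians, the 14-gene core difference and correlations were not recomputed this way. The immuno minus constitutive difference ranged from 1.19 to 1.26 and core minus regulatory from 0.30 to 0.33. The immuno share ranged from 75.0% to 75.8% at β5, 52.3% to 53.7% at β1 and 85.6% to 86.5% at β2. The number of proteasome-named genes detected stayed at 48, the number varying among libraries was 0 under every setting, and all genes called varying numbered 35 to 46 with a library left out, against 72 with all 3 and 312 with a common dispersion. The 3 libraries limit any contrast between genes to an exact p of 0.25.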
